A study of Mus musculus with 3 samples.

Results

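The genes described here are 44 genes of the G1/S transition and of DNA replication, chosen by name as a list of replication licensing, helicase, polymerase, nucleotide supply, cyclin, kinase and E2F genes, and looked up by mouse symbol among the 19723 genes of the deposited count table. All 44 were found, and all 44 had at least 1 count in each library. They were measured by RNA-seq in 3 pooled cell sorts from female BALB/c mice aged 6 to 8 weeks, with 1 library per group. Myeloid-derived suppressor cells (MDSCs, immature myeloid cells that gather in tumours and dampen T cell responses) were pooled from 20 tumours taken from alisertib-treated mice. Alisertib inhibits Aurora A, a kinase of mitosis. A second pool of MDSCs came from 20 tumours of control mice, which one label describes as untreated and another as control treated. The third group was bone marrow neutrophils sorted from 5 wild-type mice, so each library is a pool and single mice cannot be compared. Cells were taken on a FACSAria sorter at a stated purity above 90%. The sort markers, the tumour line, and the dose and schedule of alisertib are not stated in the labels. Tissue, tumour and cell sort differ together between bone marrow and tumour, so their shares cannot be told apart.

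In G1, D-type cyclins with CDK4 or CDK6, and then E-type cyclins with CDK2, phosphorylate the retinoblastoma family of pocket proteins, which releases E2F factors to switch on genes needed for S phase. At origins, ORC, CDC6 and CDT1 load the MCM2-7 helicase, which CDC45 and GINS then activate, and the polymerases copy the DNA behind it around the sliding clamp PCNA. Neutrophil precursors divide in the bone marrow, and mature neutrophils have left the cell cycle.

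The libraries held 19373087 counts in the alisertib MDSCs, 21959748 in the control MDSCs and 21987097 in the bone marrow neutrophils. Levels are given as CPM (counts per 1000000 of library size) after edgeR TMM scaling, always in the order alisertib, control, bone marrow. No group has a second library, so the conditions could not be tested: each ratio compares libraries, with an exact 95% interval that covers counting error only. A gene is called higher or lower where the bound of that interval nearest to 1 is at least 2-fold, and it was called so among 13087 genes that reached 1 CPM in at least 1 library. All 44 genes passed that filter. All 8 neutrophil markers (among them S100a8, S100a9, Ly6g and Csf3r) had counts in each library, summing to 13698, 31861 and 57495 CPM. All 8 lay below bone marrow in both tumour libraries, with 4 called lower in control and 6 in alisertib MDSCs.

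More of the replication genes were lower than higher in tumour MDSCs against bone marrow neutrophils, and Cdt1, Mcm10, Pcna and Rfc5 were higher in both tumour libraries. In control MDSCs 24 of the 44 were called lower than in bone marrow (22.0% of all genes were) and 4 were called higher (18.9% of all genes). In alisertib MDSCs 21 were called lower (21.1% of all genes) and 5 higher (19.7% of all genes). Both comparisons use the same bone marrow library, so their values stand side by side and are not independent of each other. The median log2 ratio of the 44 genes was -1.48 for control and -0.87 for alisertib MDSCs, beside -0.09 and -0.03 over all genes. The ratio was above 1 for 11 of the 44 genes in control MDSCs (47.8% of all genes) and for 13 in alisertib MDSCs (49.3% of all genes). Between the alisertib and control MDSCs none of the 44 was called in either direction, where 1.87% of all genes were called higher and 1.15% lower. In a bulk sample, fewer cells of a type and less RNA per cell cannot be told apart.

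**Figure D1:**
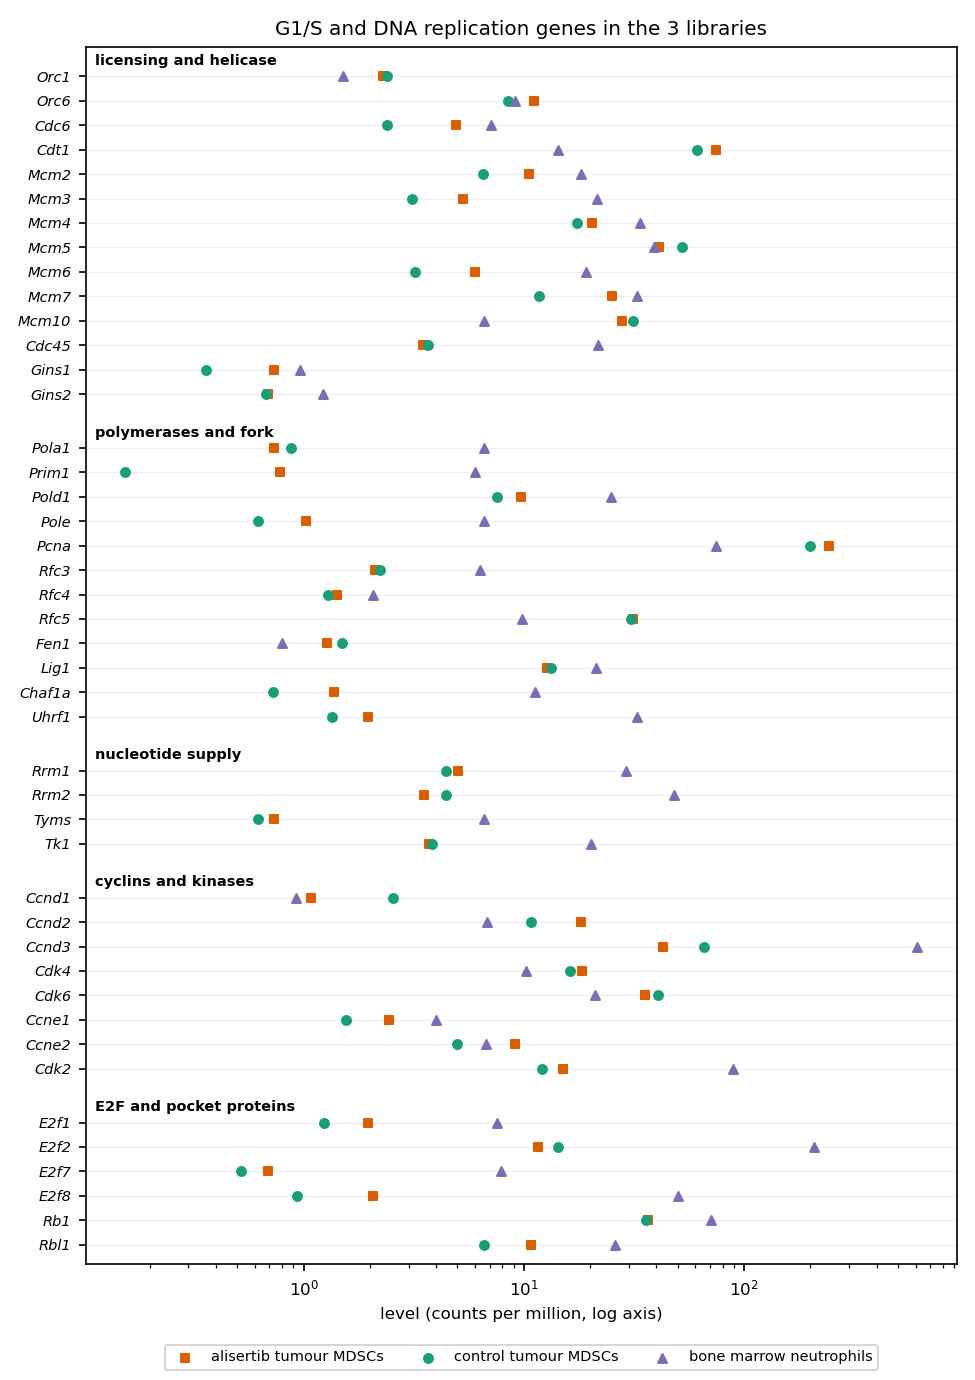
CPM of each of the 44 genes on a log axis, 1 point for each of the alisertib, control and bone marrow pools, ordered by role. The bone marrow point lies to the right for most genes, as for Ccnd3 at 612 CPM. It lies to the left for some, among them Cdt1, Mcm10, Pcna and Rfc5, which were called higher in both tumour libraries.

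Exons of 20 of the 44 genes overlap exons of another counted gene in GENCODE M21, and without the counting strand their reads cannot be told apart from those of an antisense partner. Of the genes called, these are Ccnd2, Ccnd3, Cdc45, Cdk2, Chaf1a, E2f8, Mcm7, Pole, Rfc5 and Tk1. Summed over the list, the 44 genes gave 762, 691 and 1655 CPM. That total hides a difference between roles. Licensing and helicase genes summed to 235, 204 and 227 CPM, and polymerase and fork genes to 308, 259 and 203 CPM, so the fork sums were above bone marrow in both tumour libraries and the licensing sums lay on either side of it. Nucleotide supply genes summed to 13.0, 13.4 and 104 CPM, cyclins and kinases to 143, 154 and 751 CPM, and E2F and pocket protein genes to 63.7, 59.5 and 370 CPM. The sums of the last 2 roles rest largely on Ccnd3 and E2f2 in the bone marrow library, and that of the fork genes on Pcna in the tumour libraries.

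E2F sites near the start are a known feature of S-phase genes, so the promoters of the list were searched for the letters TTTCCCGC, TTTCGCGC, TTTGCCGC and TTTGGCGC on both strands, overlapping matches counted separately. The windows were the RefSeq stretches (GRCm38.p6) from 250 bases before to 50 after each start, and 36 of the 44 genes had one. At least 1 match was found for 16 of the 36 genes (44.4%), against 704 of 27025 genes (2.60%) in the whole promoter table. Matches were found for 7 of 11 licensing and helicase genes, 5 of 11 polymerase and fork genes, 0 of 4 nucleotide supply genes, 1 of 5 cyclins and kinases, and 3 of 5 E2F and pocket protein genes. Among members called lower in control MDSCs than in bone marrow 12 of 23 held a match. So did 1 of 4 called higher and 3 of 9 not called. No binding was measured here. A match is only a run of letters, and its absence says only that these letters are not in the window.

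The 200 bases before the start are printed 5′ to 3′ on the gene's strand, with matches in capitals. The first 5 had the highest bound of their role, in either direction, in control MDSCs, and Cdt1 the highest among licensing genes called higher in alisertib MDSCs. Mcm3 (chr1:20820313-20820512, minus strand) and Uhrf1 (chr17:56304113-56304312, plus strand, its second start) were lower in both tumour libraries, and so were Ccnd3 (chr17:47504851-47505050, plus strand, its first start) and E2f8 (chr7:48881597-48881796, minus strand), while Mcm10 (chr2:5012792-5012991, minus strand) and Cdt1 (chr8:122567815-122568014, plus strand) were higher. The 2 matches of Mcm3 and the 1 of Cdt1 lie after the start and outside the stretch. Mcm5 (chr8:75109309-75109508, plus strand), Mcm6 (chr1:128359706-128359905, minus strand) and E2f7 (chr10:110745239-110745438, plus strand) were added because of their matches, which overlap in Mcm5 and at the first place in Mcm6. Rfc5 (in control MDSCs), Pcna and Cdc45 (in alisertib MDSCs) and Rrm2 (in both) also had the highest bound of their role in a direction, but their stretch overlaps annotated exons and is not shown. Ccnd1 and Ccnd2 are named only.
Mcm3: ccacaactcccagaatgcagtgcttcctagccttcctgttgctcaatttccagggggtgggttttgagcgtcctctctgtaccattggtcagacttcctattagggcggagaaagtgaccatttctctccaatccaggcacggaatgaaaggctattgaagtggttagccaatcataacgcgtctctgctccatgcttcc
Mcm10: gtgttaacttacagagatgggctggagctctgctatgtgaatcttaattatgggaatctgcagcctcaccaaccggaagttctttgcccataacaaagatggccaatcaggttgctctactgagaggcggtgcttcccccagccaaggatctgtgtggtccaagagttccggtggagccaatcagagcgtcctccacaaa
Uhrf1: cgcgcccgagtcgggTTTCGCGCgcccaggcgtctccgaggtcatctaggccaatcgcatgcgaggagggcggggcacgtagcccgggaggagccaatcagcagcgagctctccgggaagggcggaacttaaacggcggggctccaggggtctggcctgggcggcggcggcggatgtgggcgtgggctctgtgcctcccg
Ccnd3: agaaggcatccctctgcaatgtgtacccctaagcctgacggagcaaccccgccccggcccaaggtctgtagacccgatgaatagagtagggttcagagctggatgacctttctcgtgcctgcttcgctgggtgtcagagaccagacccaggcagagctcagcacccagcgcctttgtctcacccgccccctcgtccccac
E2f8: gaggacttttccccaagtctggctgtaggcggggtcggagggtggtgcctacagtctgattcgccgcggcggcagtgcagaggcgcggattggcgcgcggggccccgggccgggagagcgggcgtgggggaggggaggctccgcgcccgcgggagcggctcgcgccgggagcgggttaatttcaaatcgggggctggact
Cdt1: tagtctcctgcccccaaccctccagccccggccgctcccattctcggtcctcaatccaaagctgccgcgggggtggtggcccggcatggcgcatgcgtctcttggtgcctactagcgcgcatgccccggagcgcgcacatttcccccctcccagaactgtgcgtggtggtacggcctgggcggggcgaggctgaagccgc
Mcm5: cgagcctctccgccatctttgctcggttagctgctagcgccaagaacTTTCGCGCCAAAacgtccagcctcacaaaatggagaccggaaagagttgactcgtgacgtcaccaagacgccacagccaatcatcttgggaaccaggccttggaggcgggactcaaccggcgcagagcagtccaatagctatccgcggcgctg
Mcm6: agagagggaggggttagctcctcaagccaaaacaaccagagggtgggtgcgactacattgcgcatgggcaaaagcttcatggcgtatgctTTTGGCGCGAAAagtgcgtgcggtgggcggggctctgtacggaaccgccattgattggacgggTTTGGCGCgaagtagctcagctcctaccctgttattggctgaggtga
E2f7: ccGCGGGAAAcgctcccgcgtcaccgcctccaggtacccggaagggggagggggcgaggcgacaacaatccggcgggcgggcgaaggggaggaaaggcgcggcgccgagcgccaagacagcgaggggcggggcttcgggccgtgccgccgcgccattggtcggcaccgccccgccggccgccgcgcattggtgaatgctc

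Among the 14 licensing and helicase genes, 2 were called higher and 6 lower in control MDSCs than in bone marrow (18.9% and 22.0% of all genes). In alisertib MDSCs 2 were called higher and 3 lower (19.7% and 21.1% of all genes). The share called lower in alisertib MDSCs, 21.4%, was thus near that of all genes. The 2 higher genes were the same in both. Cdt1, the factor that brings MCM2-7 to origins with CDC6, had 1523, 1174 and 341 counts (74.7, 60.8 and 14.3 CPM). It was 4.24-fold (3.76 to 4.8) higher in control and 5.21-fold (4.63 to 5.87) higher in alisertib MDSCs. Mcm10, a scaffold that helps the helicase to start, had 572, 603 and 156 counts (28.1, 31.2 and 6.56 CPM), 4.76-fold (3.99 to 5.72) higher in control and 4.27-fold (3.58 to 5.14) higher in alisertib MDSCs. Both tumour libraries thus lay well above the bone marrow library for a loading and a firing factor. Cdt1 (chromosome 8, 122568015-122573554, GRCm38) and Mcm10 (chromosome 2, 4989714-5012791) share no exon bases with another counted gene. Optn lies 7851 bases from Mcm10 on the same strand and had 184, 236 and 59.7 CPM, and the part of its reads was not tested.

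The helicase subunits did not move as one. Mcm3 had 108, 60 and 511 counts (5.3, 3.11 and 21.5 CPM), 6.91-fold (5.28 to 9.19) lower in control and 4.06-fold (3.29 to 5.04) lower in alisertib MDSCs. Mcm6 had 123, 62 and 456 counts (6.03, 3.21 and 19.2 CPM), 5.97-fold (4.57 to 7.92) and 3.18-fold (2.6 to 3.91) lower. The tumour libraries fell below bone marrow for both of these subunits, the alisertib library by less. Mcm2 had 216, 126 and 434 counts (10.6, 6.53 and 18.3 CPM) and was called lower in control MDSCs only, 2.8-fold (2.29 to 3.44). Its ratio of alisertib MDSCs to bone marrow was 0.58 (interval 0.491 to 0.685), which is not past 2-fold. Mcm7 had 513, 226 and 774 counts (25.2, 11.7 and 32.6 CPM), 2.78-fold (2.39 to 3.24) lower in control MDSCs, with an alisertib ratio of 0.773 (interval 0.69 to 0.865). Mcm2 and Mcm7 thus had their lowest level in the control library and an intermediate one in the alisertib library. Mcm7 shares 321 exon bases with Ap4m1 and 64 with Cops6, both on the other strand, and the strand setting of the counting is not given. Mcm4 had 20.5, 17.5 and 33.7 CPM and ratios to bone marrow of 0.518 (control) and 0.608 (alisertib), not called. Mcm5 stood at 41.2, 52.2 and 39 CPM, with ratios of 1.34 (interval 1.23 to 1.47) and 1.06 (interval 0.963 to 1.16), also not called. Hmox1, a haem-degrading enzyme gene 8980 bases away on the same strand as Mcm5, had 9052, 8435 and 81.4 CPM, and its part in the Mcm5 level was not tested.

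The 6 proteins of the MCM2-7 ring are needed in equal number, and their transcripts can be compared per gene length in the deposited FPKM values (fragments per kilobase of gene and per 1000000). Mcm5 was the highest in each library at 11.5, 14.7 and 11.6 FPKM. The highest subunit was 9.32 times the lowest in the alisertib library, 22.2 times in the control library and 4.34 times in bone marrow. Without Mcm5 these spans were 4.42, 7.07 and 3.58, so the ring's transcripts were least even in control MDSCs with or without Mcm5. Mcm6 was the lowest subunit in both tumour libraries and Mcm2 in bone marrow.

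Cdc45, the subunit that activates the loaded helicase, had 71, 71 and 516 counts (3.48, 3.68 and 21.7 CPM), 5.9-fold (4.6 to 7.67) lower in control and 6.23-fold (4.86 to 8.11) lower in alisertib MDSCs. Cdc6, the loading ATPase, had 100, 46 and 169 counts (4.9, 2.38 and 7.11 CPM) and was 2.98-fold (2.14 to 4.23) lower in control MDSCs, with an alisertib ratio to bone marrow of 0.69 (interval 0.533 to 0.889). Cdc6 was therefore another gene called in control MDSCs only. The origin recognition genes Orc1 and Orc6 had 2.3, 2.38 and 1.51 CPM and 11.1, 8.5 and 9.13 CPM and were called in no comparison. The GINS genes Gins1 and Gins2 had 7 to 29 counts per library and were not called.

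**Figure D2:**
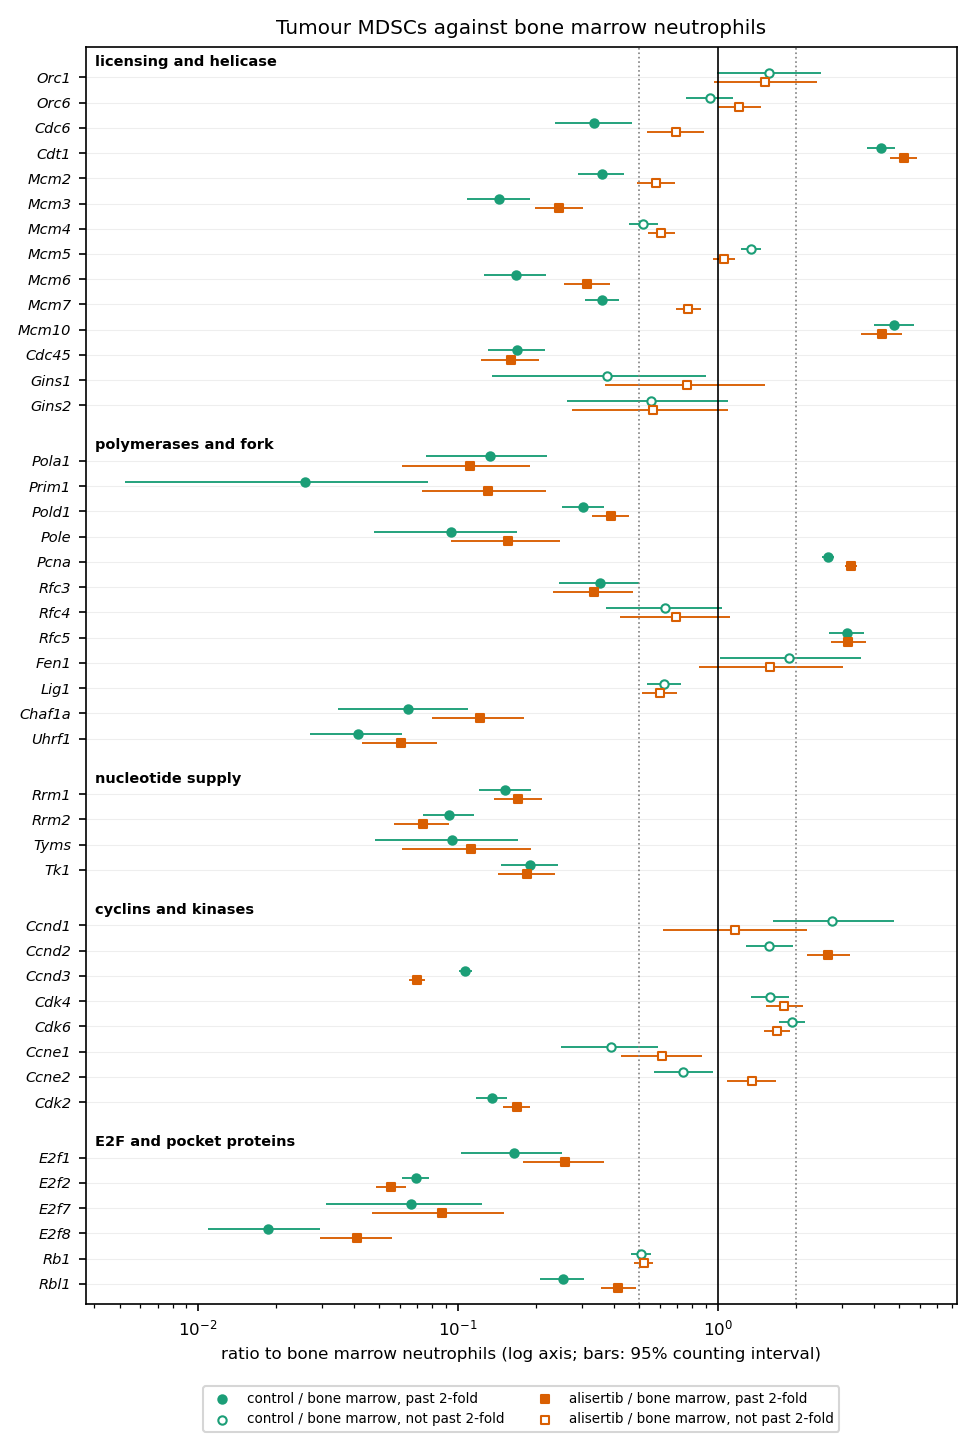
Ratio of control (circles) and alisertib (squares) MDSCs to the shared bone marrow library for each gene on a log axis, with exact 95% counting intervals; filled symbols are called past 2-fold and the dotted lines mark 2-fold. The genes run from E2f8 at 0.0186 to Mcm10 at 4.76 in control MDSCs, and the 4 nucleotide supply genes all lie left of the lower dotted line.

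Of the 12 polymerase and fork genes, 2 (16.7%) were called higher and 7 (58.3%) lower than in bone marrow in each tumour library. Over all genes the shares were 18.9% and 22.0% (control) and 19.7% and 21.1% (alisertib). The share called higher was thus near that of all genes. Pcna, the sliding clamp, was the highest member per gene length in both tumour libraries, with 4961, 3840 and 1779 counts (243, 199 and 74.8 CPM). It was 2.66-fold (2.51 to 2.81) higher in control and 3.25-fold (3.08 to 3.43) higher in alisertib MDSCs than in bone marrow. Rfc5, a subunit of the clamp loader, had 636, 594 and 233 counts (31.2, 30.8 and 9.8 CPM), 3.14-fold (2.69 to 3.67) and 3.18-fold (2.73 to 3.71) higher. Rfc5 shares 499 of its 4669 exon bases with Wsb2 on the other strand, which had 209, 201 and 39.5 CPM, and the part of Wsb2 reads in the count of Rfc5 was not tested. Pcna shares no exon bases with a counted gene, and its processed copy Pcna-ps2 had 42, 30 and 25 counts.

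Rfc3 and Rfc4, the other clamp loader genes of the list, were not called higher. Rfc3 had 43, 43 and 150 counts (2.11, 2.23 and 6.31 CPM), 2.83-fold (2.01 to 4.07) lower in control and 2.99-fold (2.12 to 4.3) lower in alisertib MDSCs. The control call of Rfc3 was lost with DESeq2 size factors, and both calls with log2(FPKM + 1). Rfc4 had 1.42, 1.3 and 2.06 CPM. Its ratios to bone marrow were 0.629 (interval 0.372 to 1.04) in control and 0.69 (interval 0.42 to 1.11) in alisertib MDSCs, not called. Per gene length, Rfc5 made up 81.6%, 81.9% and 40.4% of the FPKM of these 3 loader genes. The loader genes were thus far from even in the tumour libraries and close to even in bone marrow, where the highest was 1.56 times the lowest.

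The polymerases themselves were all lower in the tumour libraries. Prim1, the primase subunit that starts each new strand, had 16, 3 and 143 counts (0.785, 0.155 and 6.02 CPM). Its ratio to bone marrow was 0.0258 (interval 0.00527 to 0.0771) in control MDSCs, from only 3 counts, and 0.13 (interval 0.0726 to 0.219) in alisertib MDSCs. Pola1, the catalytic subunit of the polymerase that extends the primer, had 15, 17 and 157 counts (0.736, 0.881 and 6.6 CPM), 7.5-fold (4.54 to 13.2) and 8.98-fold (5.28 to 16.4) lower. The polymerases that copy most of the genome were lower as well. Pole, the catalytic subunit of the leading-strand polymerase, had 21, 12 and 157 counts (1.03, 0.622 and 6.6 CPM), 10.6-fold (5.91 to 21) and 6.41-fold (4.05 to 10.7) lower. Pold1, that of the lagging-strand polymerase, had 197, 146 and 590 counts (9.66, 7.57 and 24.8 CPM), 3.28-fold (2.73 to 3.96) and 2.57-fold (2.18 to 3.03) lower.

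The genes that rebuild chromatin behind the fork gave the lowest ratios of this role after Prim1 in control MDSCs. Uhrf1, which carries DNA methylation over to the new strand, had 40, 26 and 772 counts (1.96, 1.35 and 32.5 CPM), 24.1-fold (16.3 to 37.1) lower in control and 16.6-fold (12 to 23.4) lower in alisertib MDSCs. Chaf1a, the large subunit of the histone chaperone CAF-1, had 28, 14 and 268 counts (1.37, 0.725 and 11.3 CPM), 15.5-fold (9.1 to 28.8) and 8.21-fold (5.55 to 12.6) lower. Chaf1a shares 4648 of its 8854 exon bases with Ubxn6, which had 35.4, 41.2 and 43.1 CPM. The genes that join lagging-strand fragments were not called: Lig1, the replicative ligase, had 12.8, 13.3 and 21.3 CPM with ratios of 0.623 and 0.599. Fen1, the flap nuclease, had 19 to 29 counts per library.

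All 4 nucleotide supply genes were called lower in both tumour libraries (22.0% of all genes in control and 21.1% in alisertib MDSCs). Rrm1 and Rrm2 encode the subunits of ribonucleotide reductase, which makes the DNA precursors. Rrm1 had 102, 86 and 694 counts (5.0, 4.46 and 29.2 CPM), 6.55-fold (5.23 to 8.29) and 5.84-fold (4.74 to 7.26) lower. Rrm2 had 72, 86 and 1146 counts (3.53, 4.46 and 48.2 CPM), 10.8-fold (8.68 to 13.6) and 13.7-fold (10.8 to 17.6) lower. The thymidine enzymes lay in the same range. Tyms, thymidylate synthase, had 15, 12 and 156 counts (0.736, 0.622 and 6.56 CPM), 10.6-fold (5.87 to 20.9) and 8.92-fold (5.25 to 16.3) lower. Tk1, the thymidine kinase of S phase, had 76, 74 and 479 counts (3.73, 3.83 and 20.1 CPM), 5.25-fold (4.11 to 6.81) and 5.41-fold (4.24 to 6.98) lower. For each of the 4 genes the tumour libraries stood close to each other and the bone marrow library apart.

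The 8 cyclin and kinase genes did not share a direction. Ccnd3, the D-type cyclin and the highest member per gene length in bone marrow, had 870, 1264 and 14545 counts (42.7, 65.5 and 612 CPM), 9.34-fold (8.82 to 9.9) lower in control and 14.3-fold (13.4 to 15.4) lower in alisertib MDSCs. Cdk2, the kinase of E- and A-type cyclins, had 307, 233 and 2118 counts (15.1, 12.1 and 89.1 CPM), 7.38-fold (6.44 to 8.48) and 5.92-fold (5.25 to 6.69) lower. These were the only members of this role called lower, 25% of it beside 22.0% (control) and 21.1% (alisertib) of all genes. Ccnd2 went the other way, with 370, 208 and 162 counts (18.1, 10.8 and 6.81 CPM), and was 2.66-fold (2.21 to 3.22) higher than bone marrow in alisertib MDSCs. Its ratio in control MDSCs was 1.58 (interval 1.28 to 1.95), not called. Ccnd2 was the only member called higher in the alisertib library and not in the control library, and with log2(FPKM + 1) it was not called (log2 ratio 0.71). Ccnd1 had 22, 49 and 22 counts and a control ratio of 2.74 (interval 1.63 to 4.77), not called. Its exons share 1100 of 4709 bases with LTO1 on the other strand. The kinases that pair with D-type cyclins had ratios above 1: Cdk4 had 18.4, 16.3 and 10.2 CPM with ratios of 1.59 and 1.8. Cdk6 had 35.7, 40.5 and 21 CPM with ratios of 1.93 and 1.7, and neither kinase was called. Cdk4 shares 641 exon bases with Tspan31, whose ratio of control MDSCs to bone marrow was 6.01, and the part of those reads was not tested. Ccne1 and Ccne2, the E-type cyclins, had 2.45, 1.55 and 4.0 CPM and 9.12, 4.97 and 6.73 CPM and were not called in either tumour library.

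Per gene length, the 3 D-type cyclins summed to 6.70, 8.80 and 72.0 FPKM, of which Ccnd3 made up 69.3%, 81.6% and 98.7%. Bone marrow thus held almost only Ccnd3 among them, and the alisertib library had the smallest Ccnd3 share. Cdk4 and Cdk6 summed to 7.85, 7.61 and 4.74 FPKM. The order of members also changed between tissues. Pcna led both tumour libraries at 96.7 and 79.8 FPKM, 43.7% and 41.3% of the summed FPKM of the 44 genes, and 31.8 FPKM in bone marrow (9.10%). There Ccnd3 (71.1 FPKM), E2f2 (43.5 FPKM) and Cdk2 (37.3 FPKM) ranked above it.

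**Figure D3:**
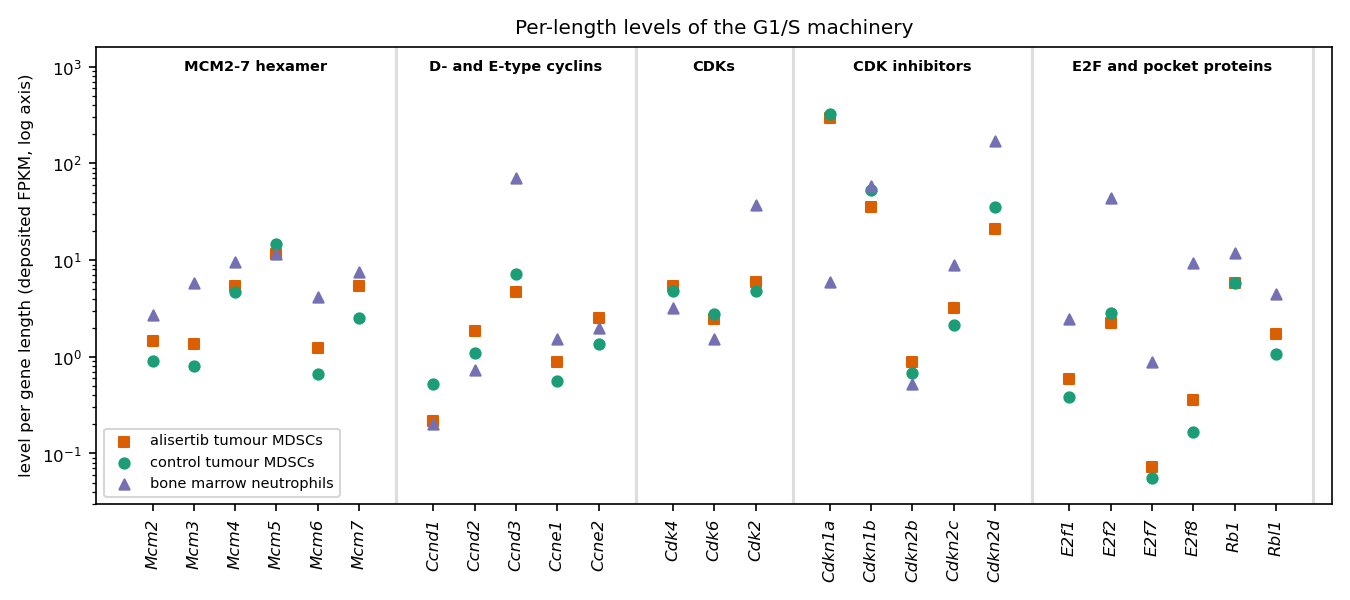
Deposited FPKM (log axis) of the MCM2-7 subunits, cyclins, CDKs, CDK inhibitors, and E2F and pocket protein genes, 1 symbol per library. Mcm5 is the highest MCM in each library, Ccnd3, Cdk2 and E2f2 are highest in bone marrow, and Cdkn1a is 298 and 328 FPKM in the tumour libraries against 6.00 in bone marrow.

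Of the 6 E2F and pocket protein genes, 5 were called lower in each tumour library and 0 higher. Over all genes 22.0% (control) and 21.1% (alisertib) were called lower. E2f8, an atypical E2F that represses S-phase genes, gave the lowest ratio of the whole list in control MDSCs, with 42, 18 and 1192 counts (2.06, 0.933 and 50.1 CPM), 53.8-fold (33.9 to 91) lower in control and 24.3-fold (17.9 to 34) lower in alisertib MDSCs. Its relative E2f7 had 14, 10 and 187 counts (0.687, 0.518 and 7.87 CPM), 15.2-fold (8.07 to 32.2) and 11.5-fold (6.66 to 21.4) lower. The activating E2Fs were lower too. E2f2 had 236, 277 and 4950 counts (11.6, 14.4 and 208 CPM), 14.5-fold (12.9 to 16.4) and 18-fold (15.8 to 20.6) lower. E2f1 had 40, 24 and 180 counts (1.96, 1.24 and 7.57 CPM), 6.09-fold (3.96 to 9.75) and 3.86-fold (2.73 to 5.58) lower. E2f2 made up 79.2%, 88.2% and 94.7% of the FPKM of these 2 activators, so it led E2f1 in each library. Rbl1, which encodes the pocket protein p107, had 220, 127 and 617 counts (10.8, 6.58 and 26 CPM), 3.94-fold (3.25 to 4.81) and 2.41-fold (2.06 to 2.82) lower. Rb1, the retinoblastoma gene, had 746, 692 and 1676 counts (36.6, 35.9 and 70.5 CPM) and ratios of 0.509 (interval 0.465 to 0.556) and 0.519 (interval 0.475 to 0.566), just inside the 2-fold limit. Rb1 shares 488 exon bases with Rcbtb2, whose control ratio to bone marrow was 5.05.

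A further 81 genes of the same pathway were examined, of which 78 passed the filter. In control MDSCs 6 (7.69%) were higher and 36 (46.2%) lower, beside 18.9% and 22.0% of all genes. In alisertib MDSCs 6 (7.69%) were higher and 31 (39.7%) lower, beside 19.7% and 21.1% of all genes. Their median log2 ratios were -1.42 (control) and -0.70 (alisertib), beside -0.09 and -0.03 over all genes. Of the licensing genes Ticrr had 21, 8 and 289 counts and Topbp1 214, 190 and 1005, both called lower in both tumour libraries. Cdc7 with 73, 43 and 308 counts and Mcmbp with 666, 601 and 2694 counts were lower in both as well. Donson, which helps to assemble the active helicase, was higher with 671, 834 and 235 counts, 4.37-fold (3.78 to 5.07) in control MDSCs. Of the fork genes the checkpoint mediator Clspn (10, 3 and 259 counts), the PCNA-binding Pclaf (11, 16 and 625), the clamp loader gene Chtf18 (6, 5 and 112), the histone chaperone Asf1b (24, 34 and 397) and Rnaseh2c (137, 120 and 1488) were called lower in both tumour libraries. In nucleotide supply Shmt1, which feeds the folate cycle, was higher with 952, 790 and 88 counts, 11.1-fold (8.86 to 13.9) in control MDSCs, while Dut (18, 10 and 184 counts) and Dck (745, 602 and 3720 counts) were lower. Shmt1 and the 4 nucleotide supply members thus lay on opposite sides of bone marrow. Shmt1 shares 184 exon bases with Smcr8, whose control ratio to bone marrow was 9.71.

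The S-phase cyclin Ccna2 had 6, 20 and 929 counts and the E2F partner Tfdp1 183, 223 and 5263, both called lower in both tumour libraries, as were Cdc25a (103, 67 and 1026 counts) and Cks1b (16, 18 and 195 counts). The CDK inhibitors differed among themselves. Cdkn1a, which encodes p21, had 14136, 14627 and 311 counts (693, 758 and 13.1 CPM), 57.9-fold (51.8 to 65) higher in control and 53-fold (47.4 to 59.5) higher in alisertib MDSCs. No other pathway gene listed here had a higher ratio to bone marrow. Cdkn2d had 576, 908 and 5046 counts, 4.51-fold (4.2 to 4.85) and 7.51-fold (6.89 to 8.21) lower, and Cdkn2c had 182, 115 and 561 counts, 3.96-fold (3.23 to 4.88) and 2.64-fold (2.23 to 3.14) lower. Cdkn1b, which encodes p27, had 3450, 4856 and 6208 counts and ratios of 0.964 and 0.648, not called, and Cdkn2b had 26, 19 and 17 counts, not called. Cdkn1c (19, 16 and 3 counts) and Cdkn2a (5, 0 and 2 counts) did not pass the filter.

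A list of 15 mitosis genes, among them Mki67, Top2a, Ccnb1 and Aurka, was called lower for 15 of 15 in each tumour library, with median log2 ratios of -4.77 (control) and -4.63 (alisertib). They summed to 90.2, 77.1 and 787 CPM. Markers of other cells the sorts could hold also differed between bone marrow and tumour. The 6 early neutrophil precursor markers summed to 12.9, 10.8 and 354 CPM, with 6 of 6 called lower in both tumour libraries and Ctsg at 0 in the alisertib library. The 10 erythroid markers summed to 53.9, 76.0 and 117 CPM, with 7 of 8 past the filter called lower in each, and Epor at 0 in both tumour libraries. The 7 early B cell markers with counts summed to 8.44, 1.04 and 43.6 CPM, with Dntt, Igll1 and Vpreb1 at 0 in both tumour libraries and Rag1 and Vpreb3 at 0 in the control library. B cell markers summed to 40.4, 5.44 and 182 CPM. Dendritic cell markers summed to 20.7, 5.23 and 9.34 CPM, with Siglech at 0 in both tumour libraries. T and NK cell markers summed to 44.6, 16.5 and 142 CPM, but their median was 4.66, 0.959 and 0.862 CPM. Of the 8 T and NK cell markers past the filter, 5 were called higher and 2 lower in alisertib MDSCs than in bone marrow. In control MDSCs 1 was called higher and 2 lower. The 6 progenitor markers summed to 5.00, 5.44 and 64.3 CPM, with Meis1 at 0 in the control library. Eosinophil, basophil and mast cell markers summed to 54.3, 38.3 and 141 CPM, with Epx at 0 in the control library. Macrophage markers summed to 1043, 943 and 309 CPM, with none at 0. Of the 8 macrophage markers, 5 were called higher than in bone marrow in control and 6 in alisertib MDSCs, and 0 lower in either. Endothelial markers summed to 53.8, 50.7 and 10.4 CPM, with Kdr at 0 in bone marrow. Only 3 of 7 epithelial markers had counts, summing to 17.9, 16.5 and 5.51 CPM, with Epcam at 0 in bone marrow. Of these 3, 2 were called higher in each tumour library. Without counts, Krt8 had 6.64, 5.17 and 0.0238 FPKM, Krt19 1.89, 1.21 and 0, Krt14 0.0266, 0.539 and 0, and Krt5 0.0641, 0.0228 and 0. Of 6 fibroblast markers 1 had counts, and it did not pass the filter. The part of any of these cells in the levels of the replication genes was not tested.

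The 2 tumour libraries show these genes in MDSCs with and without the drug. None of the 44 was called, but 30 of 44 (68.2%) had a log2 ratio above 0, against 51.1% of all genes, and the median was 0.26 beside 0.01. The interval lay above 1 for 16 genes (26.5% of all genes) and below 1 for 5 (28.3% of all genes). The 5 were Mcm5, Ccnd1, Ccnd3, Cdk6 and E2f2. Medians by role were 0.34 for licensing and helicase genes, 0.21 for polymerase and fork genes, 0.06 for nucleotide supply genes, 0.25 for cyclins and kinases, and 0.52 for E2F and pocket protein genes.

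Past 2-fold with no regard to the interval (8.05% of all genes higher, 4.68% lower on the log2 scale with 0.5 added) were genes whose interval still reached below 2-fold. Named here after their values were seen, they were Cdc6, Gins1 (by its plain ratio only), Mcm7, Prim1, E2f8 and, in the lower direction, Ccnd1. Mcm7 came closest, at 25.2, 11.7 and 32.6 CPM and a ratio of alisertib to control of 2.15 (interval 1.83 to 2.52). Cdc6 gave 2.06 (interval 1.44 to 2.98) and E2f8 2.21 (interval 1.24 to 4.08). For these genes the alisertib library lay between the control and bone marrow libraries. Prim1 gave 5.05 (interval 1.44 to 27), from 16 counts against 3, and Gins1 2.03 (interval 0.778 to 5.88), from 15 against 7. Ccnd1 gave 0.425 (interval 0.245 to 0.716), from 22 counts against 49. The MCM2-7 subunits other than Mcm5 had ratios of 1.62 (Mcm2), 1.7 (Mcm3), 1.17 (Mcm4), 1.88 (Mcm6) and 2.15 (Mcm7), each with an interval above 1. Mcm5 gave 0.79 (interval 0.72 to 0.866), below 1. The cyclins likewise differed: Ccnd2 gave 1.68 (interval 1.42 to 2.0) and Ccne2 1.83 (interval 1.43 to 2.37), while Ccnd3 gave 0.651 (interval 0.597 to 0.711). Pcna gave 1.22 (interval 1.17 to 1.28) and Cdt1 1.23 (interval 1.14 to 1.33), both with intervals above 1 and far from 2-fold.

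**Figure D4:**
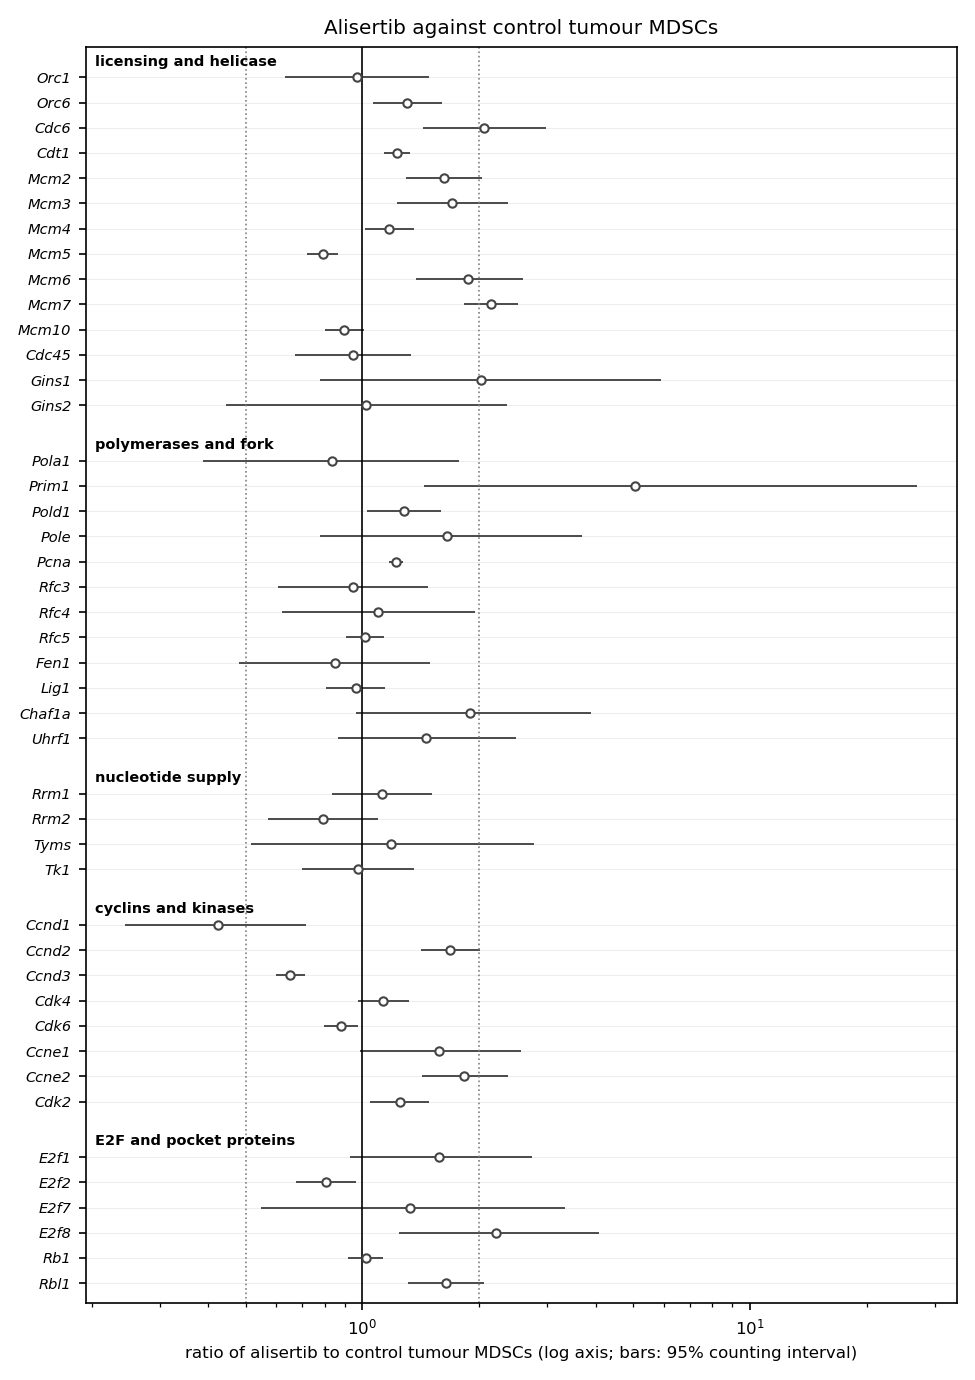
Ratio of alisertib to control MDSCs for each gene on a log axis, with exact 95% counting intervals and dotted lines at 2-fold; open circles are genes not called. No interval lies wholly past a dotted line, Mcm7 comes closest at 2.15, and Ccnd1 is the lowest at 0.425.

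Of the 78 other pathway genes past the filter, 2 (2.56%) were called higher and 0 lower between alisertib and control MDSCs, with a median of 0.22. Among all genes 1.87% were called higher and 1.15% lower, so the share called higher was close to that of all genes. Rpa1, the large subunit of the single-strand binding protein, had 183, 35 and 344 counts and a ratio of 4.95 (interval 3.43 to 7.32). Atad5, which unloads PCNA, had 123, 37 and 180 counts and a ratio of 3.15 (interval 2.16 to 4.68). Cdkn1a had a ratio of 0.915, and 0 of 15 mitosis genes were called (median 0.18). Of the markers, 5 of 6 B cell genes were called higher in alisertib MDSCs (40.4 against 5.44 CPM summed, none at 0), as were 5 of 8 T and NK cell genes (44.6 against 16.5 CPM, Klrb1c at 0 in both and Ncr1 at 0 in the alisertib library), and 4 of 8 neutrophil genes were called lower. The part of these cells in the ratios of the replication genes was not tested.

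**Figure D5:**
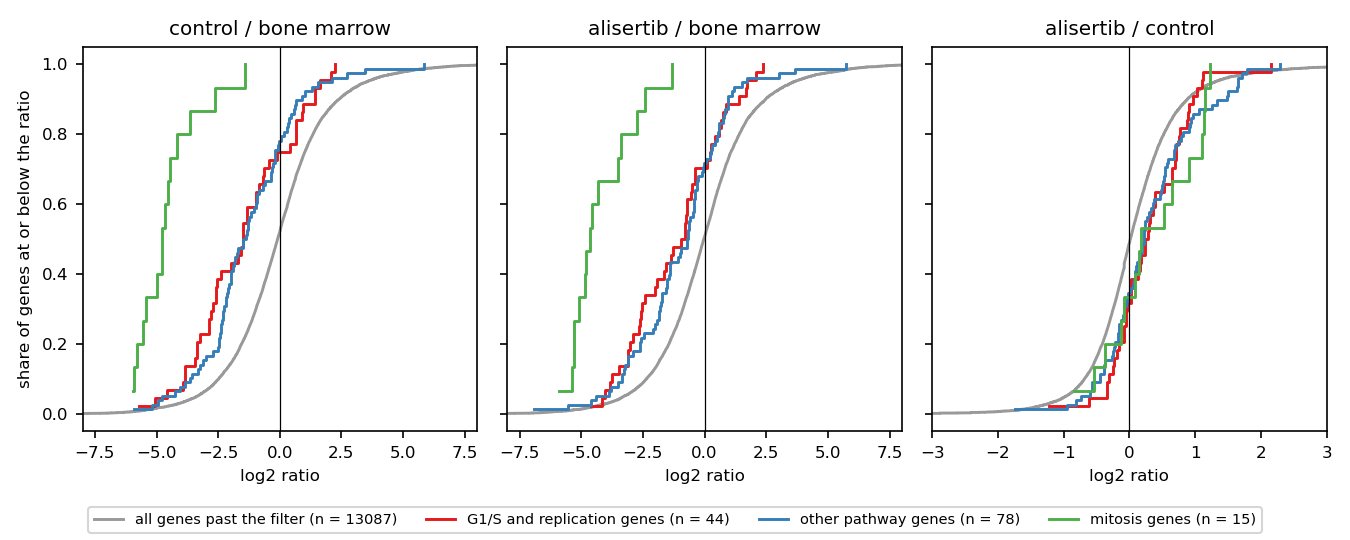
Share of genes at or below each log2 ratio for all 13087 genes, the 44 replication genes, 78 other pathway genes and 15 mitosis genes, in the 3 comparisons. Against bone marrow the replication genes (medians -1.48 and -0.87) lie left of all genes and the mitosis genes further left; between alisertib and control MDSCs the 44 genes lie to the right of all genes, with a median of 0.26.

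Scaling sets where 0 lies in these comparisons. With total counts in place of TMM, the median of all genes moved from -0.09 to -0.39 for control MDSCs against bone marrow and from 0.01 to 0.27 for alisertib against control, and the median of the 44 genes from -1.48 to -1.78 and from 0.26 to 0.52. The distance between the 44 genes and all genes was the same, -1.39 and 0.25. The genes with a log2 ratio above 0 between alisertib and control MDSCs numbered 39 of 44 with total counts, where 70.9% of all genes were above 0, and 27 with DESeq2 size factors, where 47.3% of all genes were. The cyclin and kinase median against bone marrow went from 0.11 to -0.19 in control MDSCs with total counts. Of all called genes, the share called higher was 46.2% with TMM and 35.6% with total counts for control MDSCs against bone marrow, and 61.9% and 84.0% for alisertib against control.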

How the data were processed

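RNA-seq was measured in 3 pooled libraries, 1 per group. The values used are whole-number gene counts, not normalized, and FPKM computed by the authors, both as deposited. CASAVA 1.8, STAR 2.5.1b and the builds mm9 and mm10 are named, with no role or order, per the submitters' processing notes. The counting tool, its annotation and its strand setting are not recorded in the labels or file headers.

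Symbols came from GENCODE M21 (GRCm38), which gave a symbol to 19648 of 19723 counted genes; promoters came from RefSeq (GRCm38.p6). Counts were scaled with TMM in edgeR 4.0.16 (R 4.3.3) over the 13087 genes with at least 1 CPM in at least 1 library. Ratios of scaled counts had exact 95% intervals (Clopper-Pearson on the summed count, scipy 1.17.1, Python 3.11.15). These cover counting error only, since each group has 1 library. Reads carry no molecular identifiers here. Log2 ratios had 0.5 added to each count. A call needed the bound nearest to 1 to reach 2-fold. A count of 0 allows up to 3 counts. The script was tested on simulated data. No p-value was computed.

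The 44 genes and all other lists were chosen with earlier results of these data known. By rule, counts in each library are given for members called in a comparison and for the most abundant member of each role, other members by range, up to 4 further pathway genes per group and comparison, and all CDK inhibitors; other genes were named after their values were seen. Some genes that this rule names are not reported here. The window of 10 kb for neighbouring genes was chosen after the values were seen. Alternatives were 9 planned settings and 3 added after seeing the data, with size factors from DESeq2 1.42.0 among them.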

Additional observations from a re-analysis of the deposited data

How the results depend on the processing

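No paired analysis was possible because each group has 1 library, and for the same reason no library could be left out. No median over the 44 genes changed sign under the 9 planned settings or the 3 added after seeing the data. Between alisertib and control MDSCs, members called higher numbered 1 with total counts (Mcm7, against 3.29% of all genes), 1 with a 1.5-fold bound (Mcm7, against 5.00% of all genes), 2 with FPKM plus 0.1 (Mcm7 and Prim1, against 4.81%) and 4 at 2-fold without the interval (Cdc6, Mcm7, Prim1 and E2f8), where 1 was lower (Ccnd1). With an interval that leaves out 1, 16 were higher and 5 lower. Against bone marrow, that rule gave 10 higher and 30 lower in control MDSCs (39.4% and 43.9% of all genes) and 9 higher and 28 lower in alisertib MDSCs (41.3% and 42.8%). With FPKM plus 1 the control median was -0.82. Members called lower then numbered 17 in control and 15 in alisertib MDSCs (17.8% and 18.4% of all genes). Cdc6 and Mcm2 lost their control call, Rbl1 and Ccnd2 their alisertib call, and Pola1, Pole, Rfc3, Tyms and E2f7 both. With DESeq2 size factors Rfc3 lost its control call. Without members that share exon bases, 24 members remained and the alisertib median was -1.46. Of these 24, 3 were called higher in alisertib MDSCs, beside 5 of all 44 (19.7% of all genes). Rfc5 and Ccnd2, also called higher there, were among the members left out. The cause of the other changes was not tested. Depth limits the genes with few counts, such as Prim1 with 3 in control MDSCs.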
